A study of Mus musculus with 31 samples.

Results

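Endothelial cells line every vessel of the brain and, joined by tight junctions and equipped with transporters, form the blood-brain barrier. A set of genes known for this cell layer, 10 of the 48795 genes in the count table, were followed here: Cldn5, Flt1, Pecam1, Kdr, Slc2a1, Abcb1a, Ly6c1, Slco1a4, Ocln and the arterial marker Gkn3. They were matched by gene symbol, and all 10 were found and passed the filter on low counts. They were selected on their measured levels in control against deltamethrin libraries, with results of that comparison already known, so their group differences are given below as a description with no test.

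The libraries came from homogenized mouse brain tissue, sequenced as total RNA on an Illumina NovaSeq instrument. Of 31 libraries, 13 were labelled control and 18 deltamethrin, a pyrethroid insecticide given during development. The labels used here give no strain, age, sex, litter, dose, vehicle or batch. They also do not say whether each library is a separate animal, so the spread below is the spread between these libraries and may be partly technical. Replicate numbers used below count the libraries of each group in the order of the series and are not from the labels.

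In the brain, endothelial tight junctions seal the space between cells, so that glucose and amino acids cross mainly through carriers, while efflux pumps return many lipid-soluble compounds to the blood. VEGF receptors and Wnt signals from neural tissue build and keep this state, and arteries, capillaries and veins express partly different genes. Pericytes, smooth muscle cells and astrocyte endfeet surround the endothelium, so their transcripts are present in the same homogenate. In a bulk homogenate, fewer endothelial cells and less RNA of a gene per endothelial cell cannot be told apart.

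Of the genes, 4 were picked by their values below: Cldn5 and Gkn3 had opposite group differences, and Flt1 and Kdr varied together between libraries. Whether promoter sequence bears on these values was not tested. The promoters of these 4 genes are shown here. Each is the 250 bases upstream of the RefSeq start in build GRCm38.p6, read 5′ to 3′ on the gene's strand, at chr16:18776597-18776846 (+) for Cldn5, chr6:87388936-87389185 (-) for Gkn3, chr5:147726012-147726261 (-) for Flt1 and chr5:75978456-75978705 (-) for Kdr. Capitals mark matches to the searched motifs that are named after the sequences.
Cldn5: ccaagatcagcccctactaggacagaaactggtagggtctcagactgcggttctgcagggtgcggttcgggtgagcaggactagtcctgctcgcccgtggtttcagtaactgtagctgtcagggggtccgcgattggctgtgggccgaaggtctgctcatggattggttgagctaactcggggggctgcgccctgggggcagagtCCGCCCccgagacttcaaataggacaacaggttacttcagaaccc
Gkn3: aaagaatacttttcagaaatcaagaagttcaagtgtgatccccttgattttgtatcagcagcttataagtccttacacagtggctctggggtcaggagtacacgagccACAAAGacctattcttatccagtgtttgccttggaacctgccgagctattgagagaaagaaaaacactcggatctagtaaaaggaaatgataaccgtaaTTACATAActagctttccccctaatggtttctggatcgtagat
Flt1: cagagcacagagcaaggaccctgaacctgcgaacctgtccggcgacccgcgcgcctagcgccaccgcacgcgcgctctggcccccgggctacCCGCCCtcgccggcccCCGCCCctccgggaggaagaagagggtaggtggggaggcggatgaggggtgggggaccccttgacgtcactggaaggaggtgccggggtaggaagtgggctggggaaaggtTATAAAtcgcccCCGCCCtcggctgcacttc
Kdr: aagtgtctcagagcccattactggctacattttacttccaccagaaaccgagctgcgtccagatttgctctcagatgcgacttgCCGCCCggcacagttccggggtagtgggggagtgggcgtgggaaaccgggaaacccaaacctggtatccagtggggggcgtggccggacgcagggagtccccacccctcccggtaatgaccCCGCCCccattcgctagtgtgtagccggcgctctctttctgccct

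These promoters differed in base composition. The Gkn3 window held 40.8% G and C, against 59.6% for Cldn5, 61.6% for Kdr and 70.4% for Flt1, and the median over 32851 promoters of the same table was 52.4%. The GC box (GGGCGG or its complement CCGCCC) was present in the windows of Cldn5, Flt1, Kdr, Slc2a1 and Ocln, 5 of the 9 genes with an entry, and in 32.7% of all promoters. Flt1 held 3 copies, Kdr held 2 and Cldn5 held 1, at 45 to 40 bases upstream. The TATA box (TATAAA or TTTATA) was present in Flt1, at 31 to 26 bases upstream, and in Ly6c1, against 12.4% of all promoters. The SOX motif (ACAAAG or CTTTGT) was present in Gkn3 and Abcb1a, against 16.5% of all promoters. The Abcb1a window belongs to a RefSeq start that lies 92986 bases from the GENCODE gene start given below. An ETS motif (CGGAAG or CTTCCG, 13.6% of promoters), a TCF/LEF motif (ATCAAAG or CTTTGAT, 3.2%) and an E-box (CACGTG, 6.0%) were in none of the 9 windows. Ly6c1 and Ocln each have a further RefSeq start, whose window was left out, while the shares of all promoters count every entry. The capitals TTACATAA in Gkn3 are a D-box motif, described with Dbp below. These matches say only that the letters are in the window, and no match says only that they are not.

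At the level of all genes, no gene differed between the groups at an adjusted p under 0.05. edgeR's quasi-likelihood test with Benjamini-Hochberg adjustment tested 19529 genes and called 0 of them (0%), with a smallest adjusted p of 0.441. DESeq2 and limma voom also called 0. At an unadjusted p under 0.05 edgeR counted 853 genes (4.37% of those tested), of which 462 were lower (2.37%) and 391 higher (2.0%) with deltamethrin. DESeq2 counted 986 and limma voom 847. Of the 10 vascular genes, 0 were called, and 3 had an unadjusted p under 0.05, of which Cldn5 and Kdr were higher and Gkn3 was lower. These 3 are part of what the genes were chosen for, and nothing is read from their number. Over the 10 genes the median log2 fold change was 0.07, with 7 above and 3 below 0, while the median over all tested genes was 0.00.

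Library composition differed widely and may bear on the values below. Total counts ranged from 17570311 to 38680621. The 2 mitochondrial ribosomal RNAs took from 7.32% to 40.2% of the counts, the highest share being in control replicate 2. Levels are therefore in CPM (library-size-scaled counts) with library sizes corrected by TMM factors, which ranged from 0.61 to 1.08. A log2 fold change is deltamethrin over control, with its standard error (SE) from the edgeR fit.

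Cldn5 (ENSMUSG00000041378; GRCm38 chr16:18776847-18778262, protein coding) encodes claudin-5, the main sealing claudin of the brain endothelial tight junction. Its level was 17.1, 22.4 and 31.3 CPM in the lowest, median and highest control library, and 22.5, 26.4 and 32.8 CPM in the deltamethrin libraries. All 18 deltamethrin libraries were above the control median, although the ranges of the groups overlapped. The means were 23.5 ± 3.85 CPM (SD, n = 13) and 27.1 ± 2.55 CPM (SD, n = 18), giving a log2 difference of 0.21 ± 0.07 (SE). Leaving out any 1 library gave 0.18 to 0.25.

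Ocln (ENSMUSG00000021638; chr13:100496507-100552718, protein coding) encodes occludin, a membrane protein of the same junction. Control libraries held 8.40, 9.69 and 11.1 CPM (lowest, median, highest) and deltamethrin libraries 6.66, 9.51 and 12.5 CPM. The deltamethrin range enclosed the control range, and 10 of 18 deltamethrin libraries were below the control median. Its log2 fold change was 0.03 ± 0.07 (SE), and 0.01 to 0.05 with any 1 library left out. Whether Ocln and Cldn5 differed in their response was not tested.

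Pecam1 (ENSMUSG00000020717; chr11:106654217-106750628, protein coding) encodes CD31, an adhesion molecule of endothelial cell borders and a general marker of these cells. It held 7.87, 9.97 and 14.4 CPM in the lowest, median and highest control library and 8.87, 10.98 and 14.5 CPM in deltamethrin libraries, with 13 of 18 above the control median. The means of 10.2 ± 1.84 and 10.98 ± 1.52 CPM (SD, n = 13 and 18) overlapped within 1 SD, and the log2 fold change was 0.10 ± 0.08 (SE), or 0.16 without control replicate 5.

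Flt1 and Kdr encode VEGF receptors 1 and 2; the first binds VEGF tightly and limits its action, and the second carries most of the VEGF signal into endothelial cells. Flt1 (ENSMUSG00000029648; chr5:147561604-147726011, protein coding) held 21.6, 30.2 and 40.7 CPM in control libraries (lowest, median, highest) and 21.2, 31.3 and 60.9 CPM in deltamethrin libraries. Kdr (ENSMUSG00000062960; chr5:75932827-75978458, protein coding) held 4.18, 6.29 and 9.02 CPM in control and 5.21, 6.93 and 14.8 CPM in deltamethrin libraries. For both genes the deltamethrin libraries spread farther upward than the controls. Their 2 highest libraries were the same, deltamethrin replicates 1 and 2, at 60.03 and 60.9 CPM for Flt1 and at 14.8 and 14.7 CPM for Kdr.

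The mean of Flt1 was 30.4 ± 6.51 CPM in controls and 34.9 ± 12.1 CPM with deltamethrin (SD, n = 13 and 18), giving a log2 difference of 0.20 ± 0.14 (SE). For Kdr the means were 6.43 ± 1.49 and 7.91 ± 2.84 CPM, with log2 fold change 0.29 ± 0.14 (SE). Deltamethrin replicates 1 and 2 had low mitochondrial rRNA shares, 7.61% and 8.62%, whose part in the result was not tested. Without replicate 1 the log2 fold change was 0.14 for Flt1 and 0.22 for Kdr, and without replicate 2 it was 0.14 and 0.23. With surrogate variables of library variation as covariates it was -0.02 for Flt1 and 0.11 for Kdr.

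**Figure D1:**
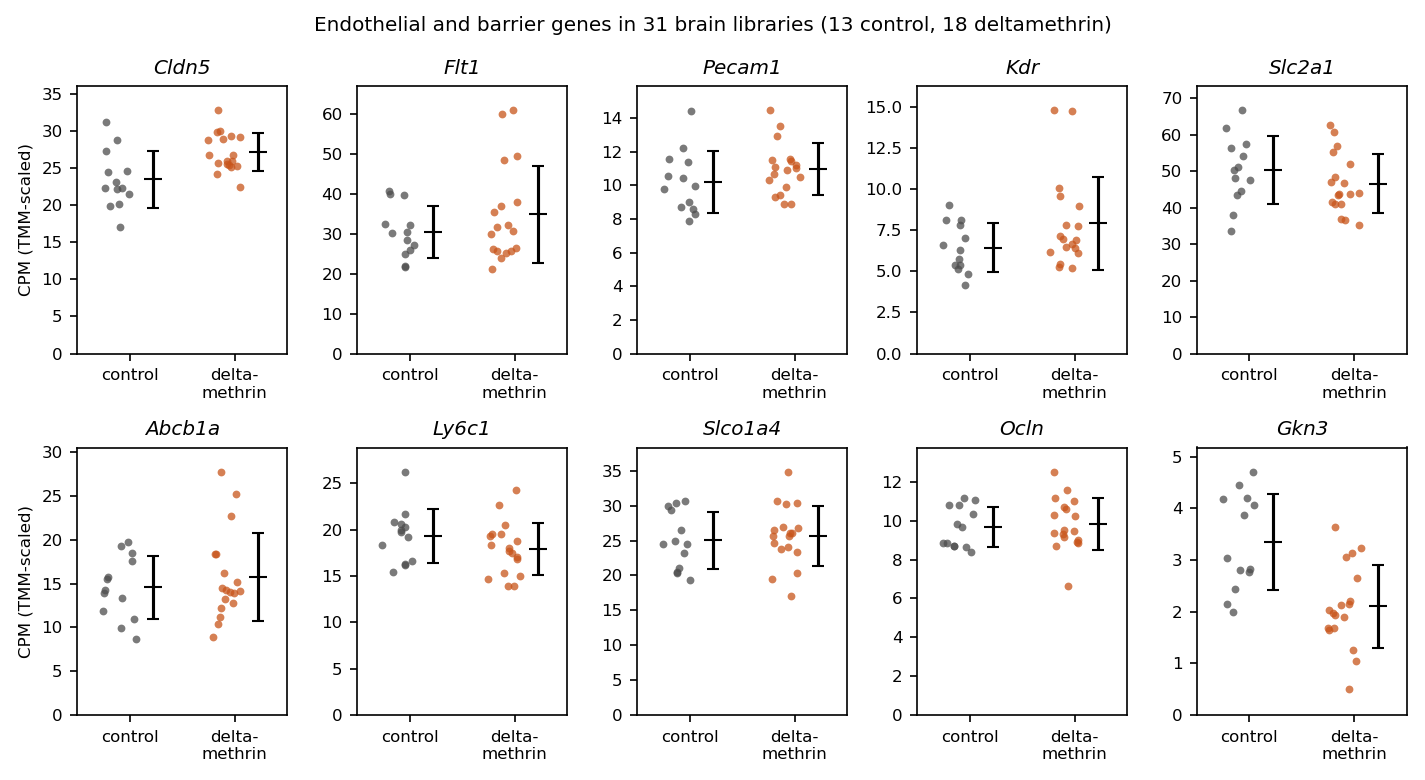
Level of each of the 10 genes in CPM (TMM-scaled counts, vertical axes from 0) in 13 control libraries (grey) and 18 deltamethrin libraries (orange); points are libraries, and bars show the mean ± SD. The ranges of the groups overlap for every gene, the deltamethrin points of Cldn5 all lie above the control median of 22.4 CPM, and 2 deltamethrin libraries stand highest for both Flt1 and Kdr.

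Among the carriers, Slc2a1 (ENSMUSG00000028645; chr4:119108711-119137983, protein coding) encodes GLUT1, which takes glucose across the barrier. It held 33.4, 50.2 and 66.6 CPM in control libraries (lowest, median, highest) and 35.2, 43.9 and 62.7 CPM in deltamethrin libraries, 13 of 18 of which were below the control median. Its means were 50.2 ± 9.26 and 46.5 ± 8.09 CPM (SD, n = 13 and 18), and its log2 fold change was -0.11 ± 0.09 (SE), or -0.07 without control replicate 9. An antisense gene, Gm12868, overlaps its exons and had 171 counts in all 31 libraries together; without known use of strand, reads of the pair cannot be told apart.

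Abcb1a (ENSMUSG00000040584; chr5:8660077-8748575, protein coding) encodes a P-glycoprotein, the pump that returns many drugs from endothelium to blood. Control libraries held 8.64, 14.3 and 19.7 CPM (lowest, median, highest) and deltamethrin libraries 8.87, 14.2 and 27.8 CPM, so that the medians nearly coincided while the highest libraries were deltamethrin ones. Its exons overlap those of Gm42686 on the other strand, which had 146 counts in all libraries together. The log2 fold change was 0.11 ± 0.14 (SE). It was 0.05 without deltamethrin replicate 1, 0.06 without deltamethrin replicate 2 or control replicate 2, 0.07 without control replicate 11, and -0.09 with surrogate variables as covariates. Slco1a4 (ENSMUSG00000030237; chr6:141805440-141856199, protein coding), a carrier of organic anions, held 19.4, 24.5 and 30.7 CPM in control and 17.02, 25.9 and 34.9 CPM in deltamethrin libraries. Its log2 fold change was 0.04 ± 0.09 (SE), -0.02 with surrogate variables, and 0.01 to 0.07 with any 1 library left out. For neither carrier did the groups differ by more than 1 SE of the fold change.

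Ly6c1 (ENSMUSG00000079018; chr15:75044018-75048830, protein coding) encodes a surface protein anchored in the membrane of capillary and arterial endothelium. It held 15.5, 19.7 and 26.2 CPM in control libraries (lowest, median, highest) and 13.9, 17.8 and 24.3 CPM in deltamethrin libraries, of which 15 of 18 were below the control median. The means were 19.3 ± 2.90 and 17.9 ± 2.83 CPM (SD, n = 13 and 18), giving a log2 difference of -0.11 ± 0.08 (SE). It was -0.07 without control replicate 11.

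Ly6c1 and Abcb1a have close copies in the genome with which reads could be exchanged. Of all 50-base windows in its annotated transcripts, Ly6c1 shared 32.8% with other genes, 21.5% with Ly6c2, and Abcb1a shared 22.5%, with 16.3% shared with Abcb1b. The other 8 genes shared at most 1.61%. In coding sequence Ly6c1 and Ly6c2 were identical at 356 of 393 paired bases (90.6%), and Abcb1a and Abcb1b at 3360 of 3819 (88.0%). The first 90 coding bases of the Ly6c pair, from the GENCODE transcripts, are shown as an example stretch. Capitals mark its 6 mismatches, and further mismatches lie in the rest of the coding sequence.
Ly6c1: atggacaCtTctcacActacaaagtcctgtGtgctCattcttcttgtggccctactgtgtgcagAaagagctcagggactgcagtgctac
Ly6c2: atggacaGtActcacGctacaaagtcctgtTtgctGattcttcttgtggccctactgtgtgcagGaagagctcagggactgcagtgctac

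The copies themselves were counted at low levels. Ly6c2, a marker of monocytes, had means of 0.468 CPM in controls and 0.365 CPM with deltamethrin. Abcb1b had 3.48 and 3.38 CPM, -0.04 ± 0.07 (SE) as a log2 fold change. How the authors' counting treated reads that match both copies is not given in the sources used here, so the levels of Ly6c1 and Abcb1a are uncertain to that extent.

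Gkn3 (ENSMUSG00000030048; chr6:87383256-87388935, protein coding) encodes gastrokine 3, a small secreted protein that marks arterial endothelium in mouse brain. Control libraries held 2.0, 3.05 and 4.71 CPM (lowest, median, highest) and deltamethrin libraries 0.499, 2.01 and 3.64 CPM. Of the 18 deltamethrin libraries, 14 were below the control median, and 9 lay below the lowest control library, while the others lay within the control range. The means were 3.35 ± 0.929 and 2.11 ± 0.806 CPM (SD, n = 13 and 18), and the log2 fold change was -0.66 ± 0.18 (SE). Gkn3 had the fewest counts of the 10 genes, 15 to 155 per library, and the widest spread between libraries beyond counting error, a biological coefficient of variation of 32.9%. Without deltamethrin replicate 7, the lowest library, the log2 fold change was -0.60, and with surrogate variables it was -0.47.

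Other genes of arterial endothelium had smaller log2 fold changes. On the log2 scale, Gja5, a connexin of arteries, differed by -0.03 ± 0.11 (SE), Bmx by 0.06 ± 0.16, Efnb2, the arterial ephrin, by 0.04 ± 0.07, Sema3g by -0.01 ± 0.17 and Mgp by -0.21 ± 0.13. None of these 5 had an unadjusted p under 0.05. Their mean levels over all libraries ran from 0.847 CPM for Bmx to 49.7 CPM for Efnb2. The share of their RNA that came from endothelium is not known in a homogenate. The same limit holds for the venous and capillary genes below, among them Spock2 at 489 CPM. Of 13 arterial genes tested, 7 were higher and 6 lower, with a median of 0.00. Whether Gkn3 differed from these genes was not tested.

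Compared per kilobase of exon, which sets levels of different genes roughly side by side, the 10 genes spanned a wide range. Exon length was the union over all annotated transcripts, so a gene that uses only some of them may be set too low. Cldn5 was highest at 18.1 ± 2.55 CPM per kb (SD over 31 libraries), followed by Slc2a1 at 13.7 ± 2.47 and Ly6c1 at 11.04 ± 1.73. Slco1a4 followed at 3.96 ± 0.645, Gkn3 at 3.07 ± 1.23, Abcb1a at 2.78 ± 0.815, Flt1 at 2.45 ± 0.759 and Ocln at 2.31 ± 0.284. Pecam1 at 1.71 ± 0.270 and Kdr at 0.807 ± 0.271 CPM per kb were lowest. From Slco1a4 to Ocln, the means of neighbours in this order differed by less than the larger of their SDs. Within libraries, Abcb1a was above Flt1 in 28 of 31, Slco1a4 above Gkn3 in 21, Gkn3 above Abcb1a in 17 and Flt1 above Ocln in 15. The place of Gkn3 differed by group. In controls its mean was 3.91 CPM per kb, beside 3.90 for Slco1a4. With deltamethrin it was 2.46, below Abcb1a at 2.87 and Flt1 at 2.585.

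**Figure D2:**
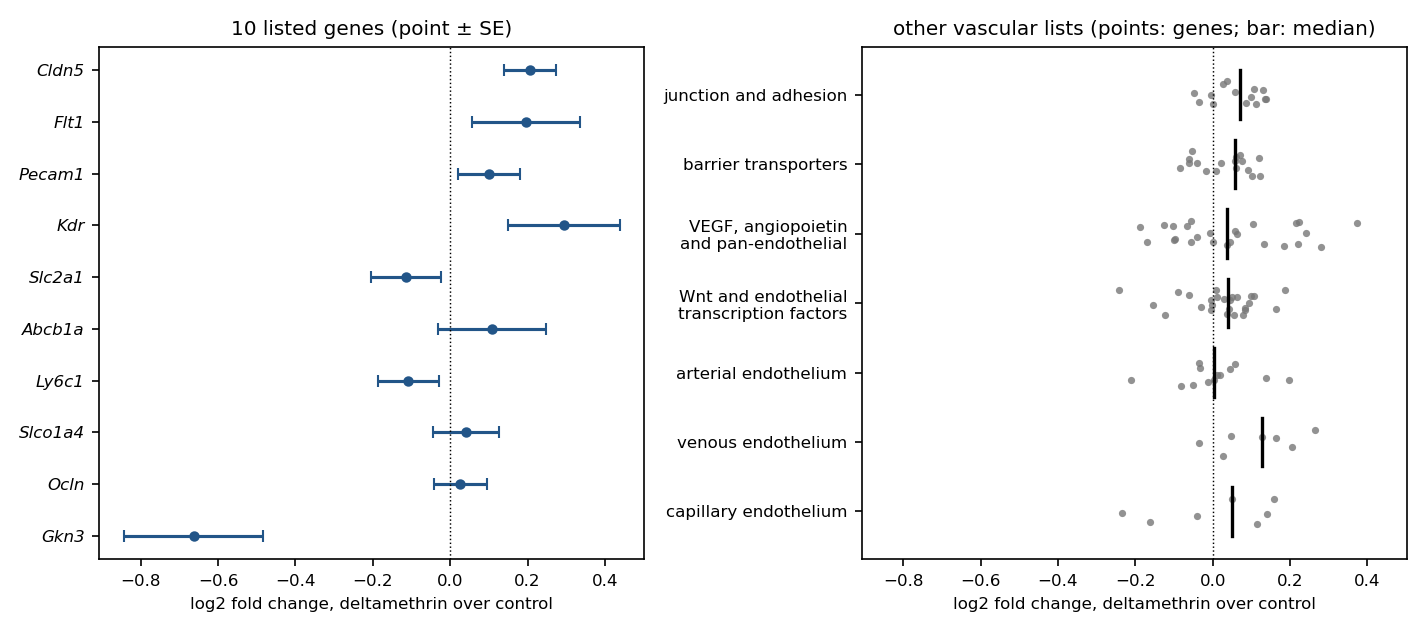
Log2 fold change, deltamethrin over control, for the 10 genes (left, point ± SE from the edgeR fit) and for the genes of 7 other vascular lists (right, points are genes and bars are list medians). On the left, Gkn3 lies farthest from 0 at -0.66 and Kdr highest at 0.29; on the right, list medians lie between 0.00 and 0.13.

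Around these genes, 114 further genes of the barrier and vessel wall were listed by role, and 109 passed the count filter. Of these, 0 were called, 69 were higher and 40 lower with deltamethrin, the median log2 fold change was 0.04, and 5 (4.59%) had an unadjusted p under 0.05, against 4.37% of all genes. Aplnr, Cytl1, Lcn2, Selp and Sele did not pass the filter. For all of these lists the share of RNA that came from endothelium is not known in a homogenate. Examples are Ctnnb1 at 300 CPM and Tjp1 at 69.3 CPM over all libraries.

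Junction and adhesion genes were higher in 11 of 14 cases, with a median log2 fold change of 0.07 and 0 at an unadjusted p under 0.05. Among them, Tjp1, which encodes the scaffold ZO-1, differed by 0.11 ± 0.08 (SE), and Cdh5, the endothelial cadherin, by 0.11 ± 0.17. Of 17 barrier transporters, 11 were higher and 6 lower (median 0.06), again with 0 at an unadjusted p under 0.05. The efflux pump Abcg2 differed by -0.06 ± 0.07 (SE) and the lipid carrier Mfsd2a by -0.08 ± 0.10.

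The list of VEGF, angiopoietin and general endothelial genes was almost evenly divided, with 13 of 25 higher and 12 lower (median 0.04). Cd93, a surface receptor of endothelial cells, had 4.11 ± 1.09 CPM in controls and 5.36 ± 1.63 CPM with deltamethrin (SD), giving a log2 difference of 0.37 ± 0.14 (SE), with an unadjusted p of 0.0132. Acvrl1, the receptor ALK1 of the BMP pathway, had 13.9 ± 1.73 and 12.2 ± 1.55 CPM, with log2 fold change -0.19 ± 0.07 and unadjusted p 0.00923. With surrogate variables the log2 fold change of Cd93 was 0.20. The ligand Vegfa differed by 0.06 ± 0.10. None of these had an edgeR adjusted p under the threshold, Cd93 and Acvrl1 being at 0.813.

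Of 26 genes of the Wnt pathway and of endothelial transcription factors, 17 were higher and 9 lower (median 0.04). Klf2, a factor induced by blood flow, had 5.79 ± 1.59 CPM in controls and 4.91 ± 0.869 CPM with deltamethrin (SD), giving a log2 difference of -0.24 ± 0.11 (SE) and an unadjusted p of 0.0318. Among 7 venous genes tested, 6 were higher (median 0.13). Nr2f2, the transcription factor COUP-TFII that specifies veins, had 17.3 ± 2.55 and 20.7 ± 3.84 CPM, with log2 fold change 0.26 ± 0.09 and unadjusted p 0.00437. Among 7 capillary genes, 4 were higher and 3 lower (median 0.05), and Rgcc had 14.9 ± 3.72 and 12.6 ± 2.77 CPM, with log2 fold change -0.24 ± 0.11 and unadjusted p 0.0441. With surrogate variables the log2 fold change of Rgcc was -0.09, and without control replicate 11 that of Klf2 was -0.16. For Klf2, Nr2f2 and Rgcc the edgeR adjusted p was 0.813, so no difference passed.

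Markers of other cells in the homogenate also leaned one way or the other. Choroid plexus markers were lower in 11 of 12 cases (median log2 fold change -0.11), with a summed level of 273.4 to 1321 CPM in controls and 252.9 to 736 CPM with deltamethrin. All 5 red blood cell genes were lower (median -0.29), summing to 492 to 1670 CPM and 380 to 1242 CPM. All 8 astrocyte genes were higher (median 0.12), summing to 1477 to 2708 CPM and 1457 to 4540 CPM. Cerebellar genes were higher in 6 of 6 cases (median 0.23) and striatal genes lower in 6 of 6 (median -0.16), with sums of 152 to 464 against 174 to 605 CPM and of 423 to 775 against 339 to 878 CPM. Pericyte genes were higher in 8 of 11 cases (median 0.07), summing to 108 to 202 CPM in controls and 119 to 233 CPM with deltamethrin. Smooth muscle genes were higher in 6 of 9 cases, fibroblast genes in 7 of 8, microglial genes in 4 of 7, neuronal genes in 4 of 6, oligodendrocyte genes in 2 of 6, and platelet and leukocyte genes in 2 of the 4 that passed the filter. None of these lists had a gene at 0 in every library, none of their genes passed the adjusted threshold, and their part in the vascular values was not tested.

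How the 10 genes varied between libraries was tested without the group labels. Both groups were pooled, so the group differences, with which the genes were chosen, enter these correlations. Over 31 libraries, Pearson's r and Spearman's rho of log2 CPM were computed for the 45 pairs of these genes, with permutation p-values (two-sided, 100000 resamples) adjusted together with 307 other relations, 352 in all. The pairs were added after the data had been seen. Of the 45 pairs, 16 passed an adjusted p of 0.05, of which 13 were positive and 3 negative. With values centred on the group means, 15 passed, 12 positive and 3 negative. The share of pairs that would pass among other genes was not computed, so nothing particular to these genes is read from the counts.

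Flt1, Abcb1a, Kdr and Pecam1 formed a closely correlated set. The highest correlation was between Flt1 and Abcb1a, the VEGF receptor and the efflux pump, at r = 0.92 and rho = 0.92, and it was 0.90 in the controls and 0.94 in the deltamethrin libraries alone. Flt1 and Kdr had r = 0.89 and rho = 0.82, Kdr and Abcb1a had r = 0.83, Flt1 and Pecam1 had r = 0.79, Pecam1 and Abcb1a had r = 0.76 and Pecam1 and Kdr had r = 0.71. For each of these 6 pairs the permutation p was 1e-05, the smallest that the permutations can give, and the adjusted p was 0.000176. Leaving out the 2 libraries farthest from the median kept r between 0.64 and 0.89. After adjustment for the mitochondrial rRNA share the 6 values lay between 0.51 and 0.84.

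Slc2a1 was tied to this set more loosely, with r = 0.63 with Abcb1a, 0.62 with Pecam1, 0.60 with Flt1 and 0.47 with Kdr. After adjustment for the mitochondrial rRNA share these were 0.12, 0.21, 0.04 and -0.07. Slco1a4 correlated with Abcb1a (r = 0.53) and with Ocln (r = 0.53), both with an adjusted p of 0.0175. The first of these was 0.83 after the adjustment and the second 0.53.

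The 3 negative pairs were Kdr with Ly6c1 (r = -0.54, rho = -0.47), Flt1 with Gkn3 (r = -0.53, rho = -0.46) and Flt1 with Ly6c1 (r = -0.47, rho = -0.34), with adjusted permutation p-values of 0.0160, 0.0162 and 0.0457. Without the 2 farthest libraries, Flt1 with Gkn3 was at -0.57. Kdr with Ly6c1 was at -0.33 and Flt1 with Ly6c1 at -0.25, so the relations with Ly6c1 rested partly on those libraries. Kdr with Ly6c1 was at -0.42 in controls and -0.54 in deltamethrin libraries alone, and Flt1 with Ly6c1 at -0.33 and -0.49. With no scaling factors, r of Flt1 with Ly6c1 was 0.04 and that of Flt1 with Gkn3 was -0.41. With values centred on the group means, these were -0.44 and -0.52.

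The r of Cldn5 with the other 9 genes ran from -0.27 (Gkn3) to 0.46 (Pecam1), with a median of 0.06. In the family of 206 relations of Cldn5 with vascular and cell-type genes, 0 passed an adjusted p of 0.05 by permutation, and 24 had an unadjusted p under 0.05. With Pecam1 the adjusted p was 0.197 in that family and 0.0488 in the larger family of 352. Within groups the signs were opposite: in controls r of Cldn5 was 0.76 with Pecam1, 0.46 with Slc2a1, 0.41 with Flt1, 0.31 with Abcb1a and 0.13 with Kdr, and in deltamethrin libraries it was -0.16, -0.17, -0.44, -0.35 and -0.30. The difference between the groups was not tested. With no scaling factors, which leaves differences in mitochondrial rRNA in every level, 7 of Cldn5's relations with the other 9 genes passed.

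**Figure D3:**
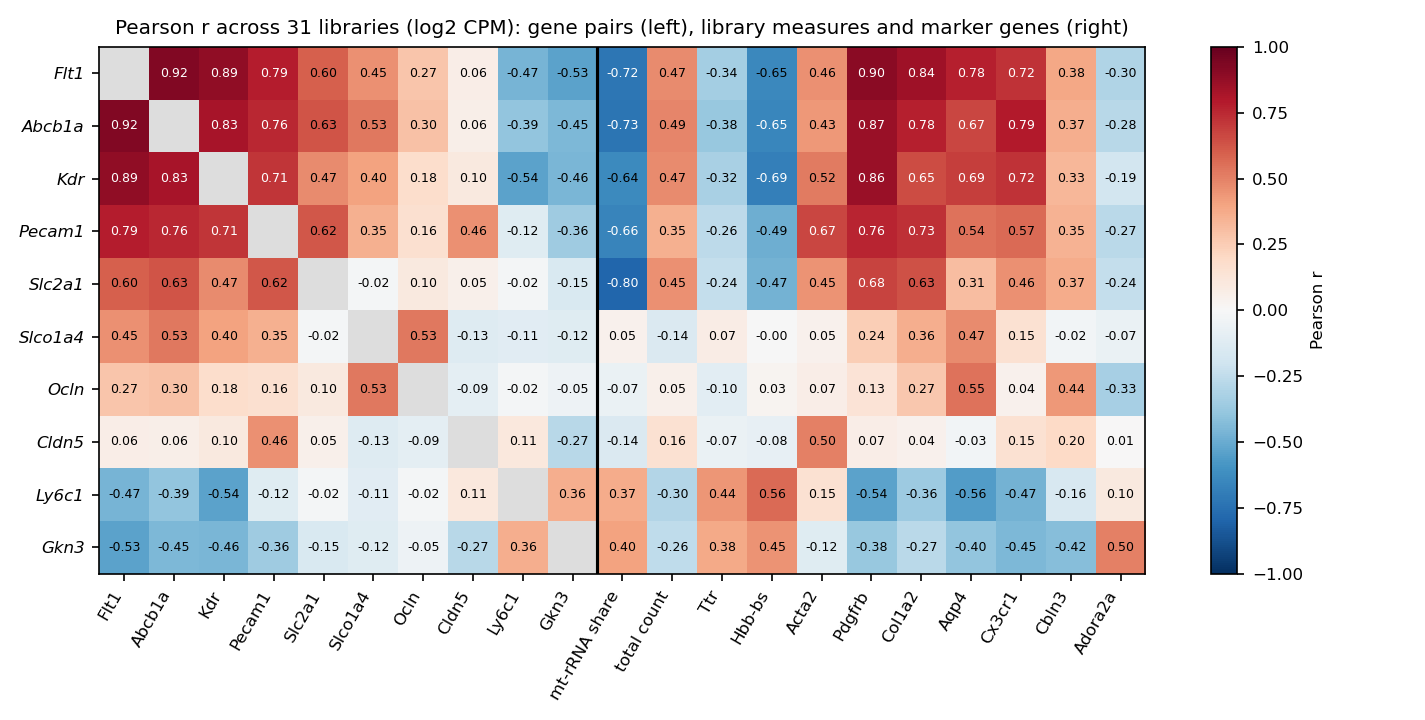
Pearson r of log2 CPM over 31 libraries, printed in each cell and coloured from -1 (blue) to 1 (red), for pairs of the 10 genes (left of the black line) and for each gene with 11 library measures or marker genes (right). Flt1, Abcb1a, Kdr and Pecam1 form a block of r from 0.71 to 0.92, while the row of Cldn5 runs from -0.27 to 0.20 except with Pecam1 (0.46) and Acta2 (0.50).

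Each of the 10 genes was also set against 11 measures: the mitochondrial rRNA share, the total count and 9 marker genes of other cells or regions. Of these 110 relations, 51 passed an adjusted permutation p of 0.05. The share of all genes that would pass with these measures was not computed, so the count is not read as a trait of the vascular genes. The mitochondrial rRNA share was negatively related to Slc2a1 (r = -0.80, rho = -0.77), Abcb1a (r = -0.73), Flt1 (r = -0.72), Pecam1 (r = -0.66) and Kdr (r = -0.64), with adjusted p-values from 7.9e-05 to 0.00045. These 5 values were negative in each group alone, from -0.48 to -0.82 in controls and from -0.73 to -0.85 with deltamethrin, and without the 2 farthest libraries they lay between -0.60 and -0.76. The other 5 genes did not pass. Cldn5 had r = -0.14 (-0.45 in controls and 0.40 with deltamethrin, a difference that was not tested), Slco1a4 had 0.05 and Ocln had -0.07, while Ly6c1 (0.37, adjusted p 0.0734) and Gkn3 (0.40, adjusted p 0.0541) had positive values. The total count was related to Abcb1a (r = 0.49), Flt1 (0.47), Kdr (0.47) and Slc2a1 (0.45), but these were 0.32 to 0.36 without the 2 farthest libraries and rested partly on them.

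**Figure D4:**
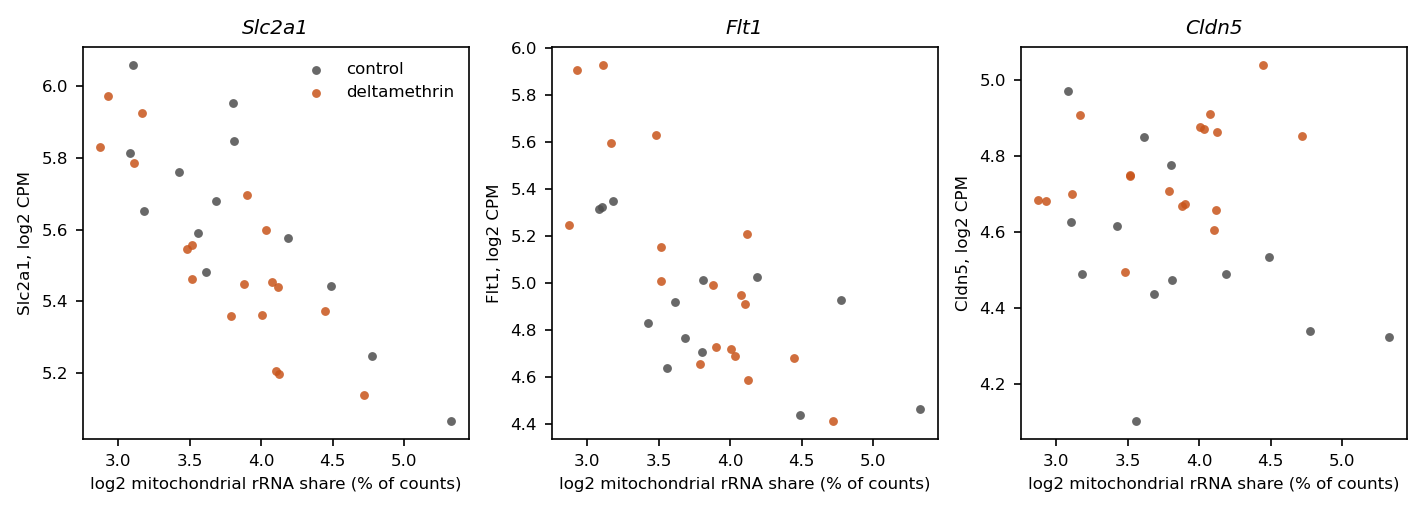
Log2 CPM of Slc2a1, Flt1 and Cldn5 against the log2 of the mitochondrial rRNA share in percent, each point a library (grey control, orange deltamethrin). Slc2a1 and Flt1 are lower in libraries with a higher share (r = -0.80 and -0.72), and Cldn5 has r = -0.14 over all libraries, -0.45 in controls and 0.40 with deltamethrin.

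With the pericyte gene Pdgfrb, the correlated set was closely related: r was 0.90 for Flt1, 0.87 for Abcb1a, 0.86 for Kdr, 0.76 for Pecam1 and 0.68 for Slc2a1, all with an adjusted permutation p under 0.05, and 0.66 or more without the 2 farthest libraries. Ly6c1 had r = -0.54 with Pdgfrb, but -0.35 without those 2. The fibroblast gene Col1a2 was related to the same set, at r = 0.84 for Flt1, 0.78 for Abcb1a, 0.73 for Pecam1, 0.65 for Kdr and 0.63 for Slc2a1. All of these had an adjusted permutation p under 0.05, and r was 0.42 to 0.76 without the 2 libraries farthest for Col1a2. The microglial gene Cx3cr1 was related to Abcb1a at r = 0.79, to Flt1 and Kdr at 0.72, to Pecam1 at 0.57 and to Slc2a1 at 0.46. It was negatively related to Ly6c1 (-0.47) and Gkn3 (-0.45). The globin gene Hbb-bs, a marker of blood left in the tissue, was negatively related to Kdr (r = -0.69), Abcb1a (-0.65), Flt1 (-0.65), Pecam1 (-0.49) and Slc2a1 (-0.47) and positively to Ly6c1 (0.56) and Gkn3 (0.45).

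Cldn5 passed with 1 of the 11 measures, the smooth muscle actin Acta2 (r = 0.50, rho = 0.38, adjusted p = 0.0137 by permutation), which was 0.37 without the 2 farthest libraries for Acta2 and did not pass in the family of 206 (adjusted p 0.125). This relation was not particular to Cldn5, as 6 of the 10 genes passed with Acta2. The others were Pecam1 (r = 0.67), Kdr (0.52), Flt1 (0.46), Slc2a1 (0.45) and Abcb1a (0.43). Gkn3 was related to the striatal gene Adora2a (r = 0.50, rho = 0.53, adjusted p = 0.0123) and to the cerebellar gene Cbln3 (r = -0.42, rho = -0.51, adjusted p = 0.0430). Both kept their size without the 2 farthest libraries, at 0.48 and -0.42. Within controls alone they were 0.39 and -0.52, and within deltamethrin libraries alone 0.48 and -0.33. The part of these region markers in the Gkn3 difference was not tested. The astrocyte gene Aqp4 was related to 7 of the 10 genes, at r = 0.78 for Flt1, 0.69 for Kdr, 0.67 for Abcb1a, 0.55 for Ocln, 0.54 for Pecam1, 0.47 for Slco1a4 and -0.56 for Ly6c1.

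The genes most like Cldn5 over the 31 libraries, among 19519 genes, were Vstm4 (r = 0.77, rho = 0.64), Gas1 (r = 0.64), Thnsl2 (r = 0.58), Pea15a (r = 0.58) and Hic1 (r = 0.58). They were picked as the highest values, so no p is given. Vstm4 had r = 0.90 in the controls and 0.12 in the deltamethrin libraries, and Pea15a 0.81 and 0.14, while Thnsl2 (0.69 and 0.63) and Hic1 (0.68 and 0.67) were alike in both groups.

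The gene most like Gkn3 was Dbp, a transcription factor of the PAR bZIP family whose RNA follows the daily clock and which binds D-box sequences. Dbp held 69.8, 82.7 and 95.6 CPM in the lowest, median and highest control library and 43.5, 64.2 and 88.1 CPM in deltamethrin libraries. Its mean was 82.5 ± 8.18 CPM in controls and 65.7 ± 11.8 CPM with deltamethrin (SD, n = 13 and 18), so both genes were lower with deltamethrin, and this shared difference enters the pooled correlation. Gkn3 and Dbp had r = 0.84 and rho = 0.84 over all libraries, 0.63 within controls and 0.81 within deltamethrin libraries, and 0.80 without the 2 farthest libraries. The next genes were Fuca1 (r = 0.74) and Rfc3 (r = 0.74).

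The place of Dbp held under several settings and not under others. It ranked first of 19528 genes with RLE factors, with no scaling factors (r = 0.76) and after adjustment for the mitochondrial rRNA share (r = 0.82), and second when values were centred on the group means (r = 0.77). Within the deltamethrin libraries alone it ranked 8, and within the controls alone 261. Sampling times are not in the labels, and their part was not tested.

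Of 17 other clock genes listed, 8 had a positive and 9 a negative r with Gkn3 over all libraries. Positive values numbered 5 of 17 within controls, 6 within deltamethrin libraries, and 12 over all libraries after adjustment for the mitochondrial rRNA share. Ciart, a repressor of the clock, had r = 0.72 and rank 8, and Arntl and Clock, which form the activating complex, had -0.47 and -0.57. Within controls Ciart, Arntl and Clock had 0.38, -0.36 and -0.25, and within deltamethrin libraries 0.65, -0.33 and -0.66. The period genes Per1, Per2 and Per3 had 0.19, 0.31 and 0.26 over all libraries, but -0.13, -0.10 and 0.10 within controls and -0.08, -0.09 and -0.06 within deltamethrin libraries. The related D-box factors Tef and Hlf had -0.00 and -0.38, and 0.43 and -0.11 after the adjustment. The list of clock genes was drawn up after the correlation with Dbp had been seen, and these values are a description.

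The Gkn3 promoter printed above holds a D-box motif, TTATGTAA, on the reverse strand, which reads TTACATAA in the line of Gkn3 and lies 43 to 36 bases upstream of the RefSeq start. This motif, searched on both strands, was present in 269 of 32851 promoters (0.8%) and in 1 of the 9 windows of the vascular genes. The other form searched, TTACGTAA, was in 0.1% of promoters and in none of the 9. The search was made after the correlation and the letters of this promoter had been seen, so the match is a description of the sequence and no test of binding.

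**Figure D5:**
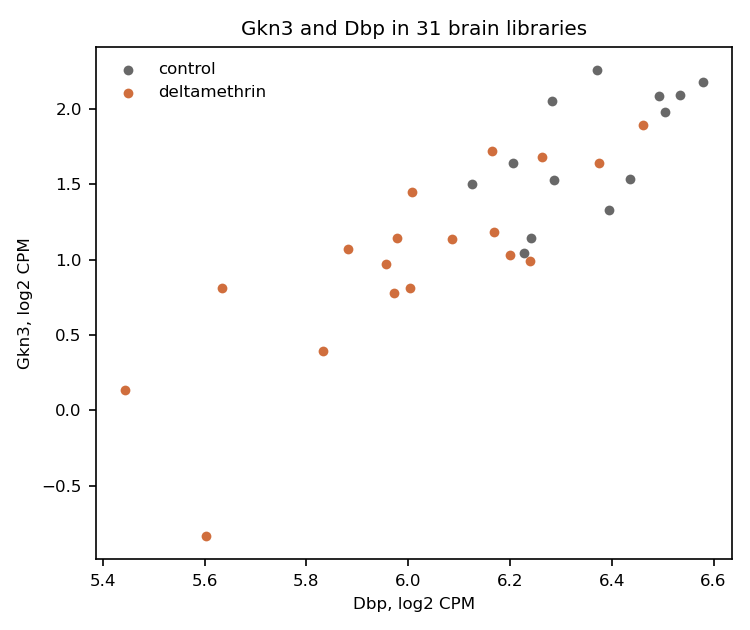
Log2 CPM of Gkn3 (vertical) against log2 CPM of Dbp (horizontal), each point a library (grey control, orange deltamethrin). Libraries low in Dbp are low in Gkn3 (r = 0.84 over 31 libraries), most control libraries lie at the upper right, and the lowest Gkn3 library is a deltamethrin one.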

How the data were processed

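The authors deposited whole-number read counts per gene for all 31 libraries. Per the submitters' processing notes, reads were handled with Trimmomatic, HISAT2, SAMtools and MultiQC against GRCm38. The counting tool, its annotation and its use of strand are not given in the sources used here. Of the 48795 genes in the table, 99.3% matched by identifier to GENCODE M21, which gave coordinates and exon lengths.

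The members and all gene lists were chosen with earlier results of these data known. Groups came from the agent in the labels. Named genes were the 10 members, up to 3 genes per pathway list of smallest unadjusted p under 0.05, the 5 genes most like Cldn5 and the 3 most like Gkn3. Arterial, junction, transporter and VEGF genes given beyond this rule were chosen for their roles after values were seen. The member pairs, the clock genes and the D-box search were added after the data had been seen.

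Differences were fitted on the whole table with edgeR 4.0.16 (TMM, filterByExpr with a minimum count of 10, robust quasi-likelihood F-test, Benjamini-Hochberg), after tests on simulated data. DESeq2 1.42.0, limma 3.58.1 (voom), sva 3.50.0 (4 surrogate variables), other scalings and filters, a mitochondrial rRNA covariate and leaving out each library were the alternatives. Correlations used log2 CPM with a prior count of 2. Promoter sequences are from RefSeq: 9 of 10 members matched, Pecam1 being without an entry. No 2 libraries of a group were within counting noise of each other (smallest chi-square per degree of freedom 6.20).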

Additional observations from a re-analysis of the deposited data

How the results depend on the processing

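No gene was called in any of the 11 alternative fits or with any 1 library left out. The log2 fold changes of Cldn5, Pecam1, Kdr, Slc2a1, Ly6c1, Ocln and Gkn3 kept their sign in all of these, and those of Flt1, Abcb1a and Slco1a4 turned negative with surrogate variables, which made 6 of the 10 genes lower instead of 3. Genes at an unadjusted p under 0.05 numbered 614 when genes needed a mean of 50 counts, 1948 with no count filter, 1796 with the mitochondrial rRNA share as a covariate and 1680 with surrogate variables, and 526 to 1389 with 1 library left out. The pathway genes among them numbered 2 with no scaling factors and 9 with the mitochondrial covariate, and 3 to 8 with 1 library left out, against 5. The cause of these shifts was not tested.

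With no scaling factors, 7 of the 9 relations of Cldn5 with the other vascular genes passed instead of 0. Under that setting 30 pairs of the vascular genes passed instead of 16, and r of Ly6c1 turned positive with Pdgfrb (0.025) and with Cx3cr1 (0.17). Leaving out 1 library gave 0 relations of Cldn5 with the other vascular genes, 13 to 19 pairs, and 38 to 55 relations with library measures. The last of these counts was lowest without control replicate 2. No paired analysis was possible because the labels give no replicate numbers or litters that pair control with deltamethrin libraries. Gkn3, with 15 to 155 counts per library, was the gene most limited by depth.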
